A study of Drosophila melanogaster with 3 samples.

Results

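The genes described here are 9 genes of the Drosophila epidermal growth factor (EGF) receptor pathway. The 9 genes were taken by name from the 13945 protein-coding genes on the 6 chromosome arms used, with earlier results of these data known. They are the ligand genes spi, Krn and vn, the ligand-processing gene rho, the receptor gene Egfr, the nuclear effector genes pnt and aop, and the inhibitor genes aos and sty. Each was described by the Scalloped peaks whose summit lay in the gene or within 2000 bp of it. The authors' main list was cut at a threshold on the irreproducible discovery rate (IDR), a measure of how alike peaks rank between replicates. Of its 10553 peaks, 67 had such a summit.

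Scalloped, encoded by sd, is the fly's TEA-domain transcription factor, which binds DNA with the coactivator Yorkie or with Vestigial. Chromatin immunoprecipitation and sequencing had been done on whole embryos of both sexes, pooled, at 4 to 20 h of age, from a stable transgenic line in which GFP is joined to the C terminus of sd, and the tagged protein was pulled down through GFP. The 3 samples were biological replicates of this single group, so no contrast between conditions exists and no test was run. Each replicate gave 1 list of 30000 peaks and so did the pooled replicates, and the IDR list was identical to the top 10553 pooled peaks. The sequencing depth is unknown, because the files hold no read totals. Whole embryos were used, so strong occupancy in few cells and weak occupancy in many cannot be told apart, and the place of a peak does not show which gene it acts on.

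The fly EGF receptor is a receptor tyrosine kinase that signals through Ras and MAP kinase. Spitz and Keren, the products of spi and Krn, are made as membrane-bound precursors and are released by the protease Rhomboid (rho), while Vein (vn) is a secreted, weaker ligand. MAP kinase activates the Ets factor Pointed (pnt) and removes the Ets repressor Anterior open, or Yan (aop). The pathway also induces its own inhibitors, the secreted Argos (aos), which sequesters Spitz, and the intracellular Sprouty (sty). In the embryo it patterns the ventral ectoderm, the muscles, the trachea and the glia.

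The strongest peaks are shown by their DNA, since the letters at a summit are what a sequence-specific factor meets. The core site of TEA-domain factors is CATTCC, which reads GGAATG on the opposite strand, and both strands were searched within 100 bp of each summit. The following 30-base stretches (dm6, read from the Release 6 genome) are on the strand that reads CATTCC, which is in capitals. The first 5 belong to summits among the 1000 strongest, and that of aos to its only summit with the site.
spi, rank 4, chr2L:19572151-19572180, minus strand: aattcctcacaaCATTCCcgcgcacacaca
spi, rank 28, chr2L:19576284-19576313, minus strand: gcgtttttcaaaCATTCCacgagcggtctt
pnt, rank 35, chr3R:23295569-23295598, plus strand: gacttcgactcgCATTCCgagataccgaga
aop, rank 64, chr2L:2161296-2161325, plus strand: gacagacattcgCATTCCaaccaaatcaga
aop, rank 281, chr2L:2162582-2162611, plus strand: aacggaagtgcaCATTCCaagcagcaaacc
aos, rank 2700, chr3L:16474144-16474173, plus strand: atgcttcatcggCATTCCaatgccatcaga

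Longer windows, of 201 bp centred on the summit, are given for the strongest peaks of spi and pnt, which hold the site, and of sty, which does not. They are on the plus strand, with GGAATG or CATTCC in capitals.
spi, rank 4, chr2L:19572046-19572246, plus strand: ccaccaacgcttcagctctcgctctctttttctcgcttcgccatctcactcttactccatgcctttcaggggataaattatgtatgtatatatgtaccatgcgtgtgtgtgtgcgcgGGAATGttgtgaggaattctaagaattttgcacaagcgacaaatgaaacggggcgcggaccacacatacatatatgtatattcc
pnt, rank 35, chr3R:23295453-23295653, plus strand: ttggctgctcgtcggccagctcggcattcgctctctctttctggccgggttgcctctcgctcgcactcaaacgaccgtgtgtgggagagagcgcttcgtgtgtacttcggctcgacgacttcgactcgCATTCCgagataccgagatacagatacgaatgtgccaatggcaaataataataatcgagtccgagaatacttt
sty, rank 336, chr3L:3418506-3418706, plus strand: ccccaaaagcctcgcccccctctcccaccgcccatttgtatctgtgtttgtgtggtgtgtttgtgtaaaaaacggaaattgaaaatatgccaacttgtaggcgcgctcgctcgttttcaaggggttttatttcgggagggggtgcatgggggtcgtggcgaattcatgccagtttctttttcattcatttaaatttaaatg

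Scalloped peaks were found at 8 of the 9 genes in the IDR list, and rho was the one without. Among all protein-coding genes, 44.0% had an IDR summit by the same rule. Long genes take in more summits, and 6 of the 9 genes were at least 10000 bp long, with a median length of 22271 bp over the 9 against 2166 bp over all genes. All 6 long genes had an IDR summit, against a background of 72.4% of long genes. Of the 3 shorter ones, spi and Krn had an IDR summit and rho did not, against 39.3% of shorter genes. A peak as such was thus common among genes of this length.

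Strong peaks were less common in the genome, and several of the genes had one. A peak among the 100 strongest was present at spi, pnt and aop, 3 of the 9 genes, where 0.947% of all protein-coding genes had one. Of these, pnt and aop are among the 6 long genes, and 2.28% of long genes had such a peak. A peak among the 1000 strongest was present at 5 genes, the same 3 with sty and Egfr, against 9.57% of all genes. Of the 6 long genes, 4 had a peak among the 1000 strongest, against 22.0% of long genes. All 9 genes had a summit in each of the 3 replicate lists, against 51.2% of all genes and 80.9% of long genes. In the IDR list, the strong peaks were thus spread over a ligand, the receptor, both nuclear effectors and an inhibitor. The receptor gene was close to the limit of 1000. Egfr ranked 972 in the IDR list and 1067, 1080 and 864 in the replicates, and aos, at 1205, fell just outside. No test was run on these shares.

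**Figure D1:**
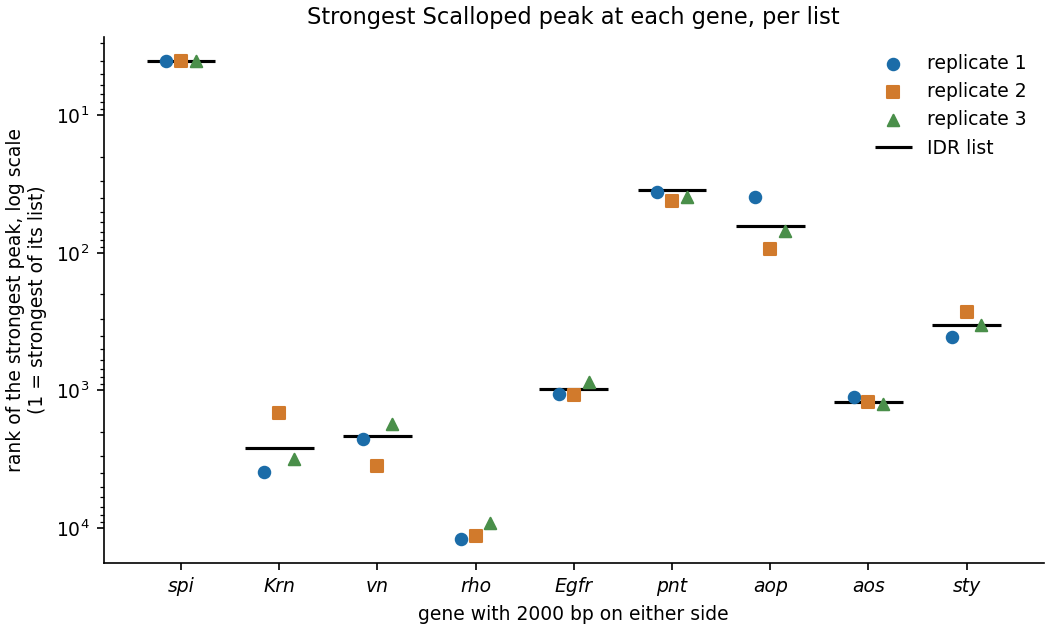
Rank of the strongest Scalloped peak at each of the 9 genes (log axis, inverted, 1 is the strongest of its list), with 1 point per replicate and a bar for the IDR list. The ranks of spi are 4 in every list, those of pnt and aop lie between 36 and 93 in the replicates, and rho has no bar because it has no IDR summit.

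The order of the 9 genes by strongest peak was nearly fixed over the replicates. From strongest to weakest it was spi, pnt, aop, sty, Egfr, aos, vn, Krn and rho in replicates 1 and 3, and in replicate 2 only Krn and vn changed places. Among neighbours in this order, the replicate ranks overlapped for 2 pairs, pnt with aop and vn with Krn. The other neighbours were separated in all 3 replicates. Pooled over the 9 genes, the replicate lists held 161, 168 and 165 summits (164.7 ± 3.51, SD, n = 3).

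Among the ligand genes, spi carried the strongest peak of the pathway (FBgn0005672, 2L, 19567900 to 19577315, minus strand, 9416 bp, with 3 start sites). Its summit at 19572146 (interval 19571429 to 19573249) ranked 4 in the IDR list. This position is intronic, 464 bp downstream of the most internal of the start sites, which is 4705 bp from the 5' end of the gene. The peak ranked 4 in each of the 3 replicates as well. Its signal value, a score per peak set by the authors' caller, was 81.9, 93.6 and 86.5 times the median of the list in replicates 1, 2 and 3 (87.4 ± 5.90, SD, n = 3). The next highest ratio among the summits of the 9 genes was also at spi, at its second strongest summit (27.4 ± 1.39, SD, n = 3). The strongest summit of pnt followed (25.0 ± 0.513, SD, n = 3).

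The spi gene held 2 further IDR summits, which share the interval 19574810 to 19577121. The stronger one, at 19576268, ranked 28 in the IDR list and 22, 36 and 28 in replicates 1, 2 and 3. It lay in an intron, 681 bp upstream of the middle start site. The weaker one, at 19575386, lay 201 bp downstream of the same start site and ranked 1472 in the IDR list. Its replicate ranks were 1543, 5773 and 936, the widest spread among the summits of the 9 genes, with a 6.17-fold range. The strongest summits of spi therefore kept their place over replicates while the weakest did not. Each replicate list held 7 summits at spi.

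The ligand gene Krn (FBgn0052179, 3L, 17649562 to 17654280, minus strand, 4719 bp) had 2 IDR summits, and neither lay inside it. The stronger, at 17654399 (interval 17654257 to 17654609), ranked 2636 in the IDR list and 3905, 1464 and 3142 in the replicates (mean rank 2837 ± 1249, SD, n = 3). It was 119 bp upstream of the Krn start site and equally 119 bp from a start site of the neighbouring gene Ndfip, so it belongs to both genes by distance. The second, at 17656110, ranked 6902 and was nearest to CG7484. Inside Krn itself the strongest peak had a mean rank of 11497 over the 3 replicate lists. Neither IDR summit held CATTCC.

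Vein is encoded by vn (FBgn0003984, 3L, 5813338 to 5845664, minus strand, 32327 bp), which held 9 IDR summits and 19, 22 and 21 summits in the replicates. Its strongest summit, at 5845609 (interval 5845455 to 5845778), was 55 bp downstream of the start site, within the 5' UTR. It ranked 2134 in the IDR list and 2269, 3516 and 1762 in the replicates (2516 ± 903, SD, n = 3). These ranks overlap those of Krn and lie wholly below those of spi. The remaining summits were scattered along the gene at ranks from 2927 to 10536, save for 1 outside the gene at 5813203, which was 110 bp from a start site of mad2. The nearest protein-coding start site was that of vn for 4 of the 9 summits. For the others it was that of mad2, also for those at 5824272 (rank 2927) and 5828579. A CATTCC site was found at 1 of the 9 summits, at 5828579.

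The ligand-processing gene rho (FBgn0004635, 3L, 1463811 to 1468944, plus strand, 5134 bp) encodes the protease whose transcription is a known limiting step of signalling. It had no IDR summit. In the pooled list its strongest peak ranked 11427, at 16 bp upstream of the start site, just past the end of the IDR list at rank 10553. The replicate lists placed their strongest rho summit at rank 12014, 11381 and 9181 (10859 ± 1487, SD, n = 3). These summits were 59 bp downstream, 131 bp downstream and 16 bp upstream of the start site, respectively. In all 3 replicates, then, a weak peak lay at the rho promoter, at 1.26, 1.34 and 1.63 times the median signal value of its list (1.41 ± 0.196, SD, n = 3). The ranks did not overlap those of any other of the 9 genes.

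The receptor gene Egfr (FBgn0003731, 2R, 21522420 to 21559977, plus strand, 37558 bp) held 8 IDR summits, every one of them intronic. Neither of its 2 start sites had an IDR summit within 500 bp. The nearest one to the 5' start site was 5043 bp away, and the nearest one to the internal start site was 1193 bp away. The strongest summit, at 21553125 (interval 21552501 to 21553387), lay 6482 bp downstream of the internal start site. It ranked 972 in the IDR list and 1067, 1080 and 864 in the replicates (1004 ± 121, SD, n = 3). A CATTCC site was centred 2.5 bp from this summit, and 3 of the 8 summits had one in all. At 2 others the nearest protein-coding start site was that of another gene, CG30286 or CG30283, and at 21527463 the noncoding gene lncRNA:CR44725 started nearer than Egfr. The replicate lists held 23, 24 and 22 summits at Egfr.

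Of the nuclear effectors, pnt (FBgn0003118, 3R, 23290231 to 23346167, minus strand, 55937 bp) is the longest of the 9 genes and has 3 start sites. It held 12 IDR summits, all found in each of the 3 replicates. The strongest, at 23295553 (interval 23295260 to 23295831), ranked 35 in the IDR list and 36, 42 and 39 in the replicates (39 ± 3, SD, n = 3). It lay 315 bp upstream of the most downstream start site, which is 50929 bp from the 5' end. Its signal value was 25.6, 24.8 and 24.7 times the list median in the replicates (25.0 ± 0.513, SD, n = 3), so the 3 values differed little.

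Each of the 3 start sites of pnt had an IDR summit within 500 bp, but of very different strength. The summit at the middle start site ranked 10487 at 136 bp, and the summit at the 5' start site ranked 9782 at 186 bp. Both are near the bottom of the IDR list, and their replicate ranks, from 7304 to 13264, lie far from the 36 to 42 of the strongest. A further intronic summit at 23332036 ranked 1355. The summit at 23348079, with rank 1591, lay outside the gene and 49 bp from a start site of PolE1. CATTCC was present at 5 of the 12 summits, where 19.8% of all IDR summits had it. This was the highest count of the 9 genes but not the highest share, since spi had the site at 2 of 3. Apart from the strongest summit, the pnt summits with the site ranked from 6225 to 9782.

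The repressor gene aop (FBgn0000097, 2L, 2156484 to 2178754, minus strand, 22271 bp) had the most IDR summits, 14, and the replicates held 29, 29 and 27. Its density of 0.533 IDR summits per kb of gene and margins was higher than that of 99.1% of protein-coding genes of at least 10000 bp. The strongest summit, at 2161335 (interval 2160930 to 2162044), ranked 64 in the IDR list and 39, 93 and 69 in the replicates (67 ± 27.1, SD, n = 3). Those ranks overlap with the ranks of pnt, although pnt came before aop in each replicate. The summit lay in a 5' UTR exon, 192 bp downstream of the internal start site, which is 17227 bp from the 5' end.

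Other strong aop peaks were found near this internal start site. The summit at 2162507 (interval 2162100 to 2164116) lay 980 bp upstream of it and ranked 281, with replicate ranks of 250, 612 and 224. The summit at 2161539, 12 bp upstream of it, ranked 1261. A summit at 2166025 (2165633 to 2166385), in an intron and without CATTCC, ranked 512 and had replicate ranks of 589, 492 and 508. At the 5' start site, by contrast, the nearest summit was 794 bp away and ranked 1404. CATTCC was found at 3 of the 14 summits, with ranks of 64, 281 and 1495. The summit at 2171488, rank 3363, was found in replicate 1 only.

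The inhibitor gene aos (FBgn0004569, 3L, 16470386 to 16483650, minus strand, 13265 bp) lies within the longer gene CG33158 on the opposite strand, so all of its 7 IDR summits are also inside CG33158. A start site of aos was the nearest one for each of them. The strongest, at 16478976 (interval 16478709 to 16479352), lay in an intron 4674 bp downstream of the start site and ranked 1205 in the IDR list. It ranked 1109 in replicate 1 and 1250 in replicate 3, and replicate 2 had no summit within 100 bp of it. The neighbouring summit of the same interval, at 16479180, ranked 5444, 1220 and 3907, so replicate 2 placed its own strong summit there. Taken over the gene, the strongest peak ranked 1109, 1220 and 1250 (1193 ± 74.3, SD, n = 3), below Egfr in each replicate. At the aos promoter, 244 bp from the start site, the IDR rank was 2419.

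The gene sty (FBgn0014388, 3L, 3401153 to 3424935, minus strand, 23783 bp) held 12 IDR summits, and its replicate lists held 27, 25 and 25. The strongest, at 3418606 (interval 3418303 to 3419110), was intronic and lay 645 bp upstream of the internal start site, itself 6974 bp from the 5' end. Its rank was 336 in the IDR list and 411, 268 and 334 in the replicates (338 ± 71.6, SD, n = 3). These ranks overlap with those of no other of the 9 genes. The summit had no CATTCC within 100 bp, as its window shows, and only the summit at 3423765, with rank 6135, had one. The densities of sty and aos, 0.432 and 0.405 IDR summits per kb, were higher than those of 97.5% and 96.5% of long genes. Of the 9 genes, aop, sty and aos thus had the most IDR summits per kb. These densities count summits, and several summits can share an interval. The 14 summits of aop lay in 9 intervals, the 12 of sty in 11 and the 7 of aos in 4.

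**Figure D2:**
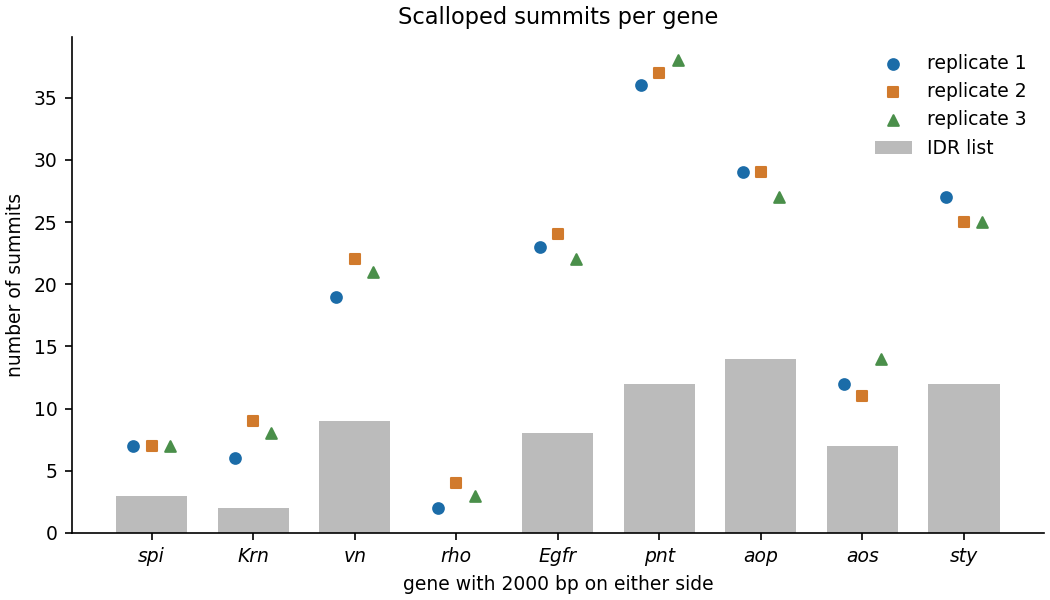
Number of Scalloped summits at each of the 9 genes with 2000 bp on either side. Grey bars start at 0 and count IDR summits, from 0 at rho to 14 at aop, and points count the summits of each replicate list, from 2 at rho to 38 at pnt.

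**Figure D3:**
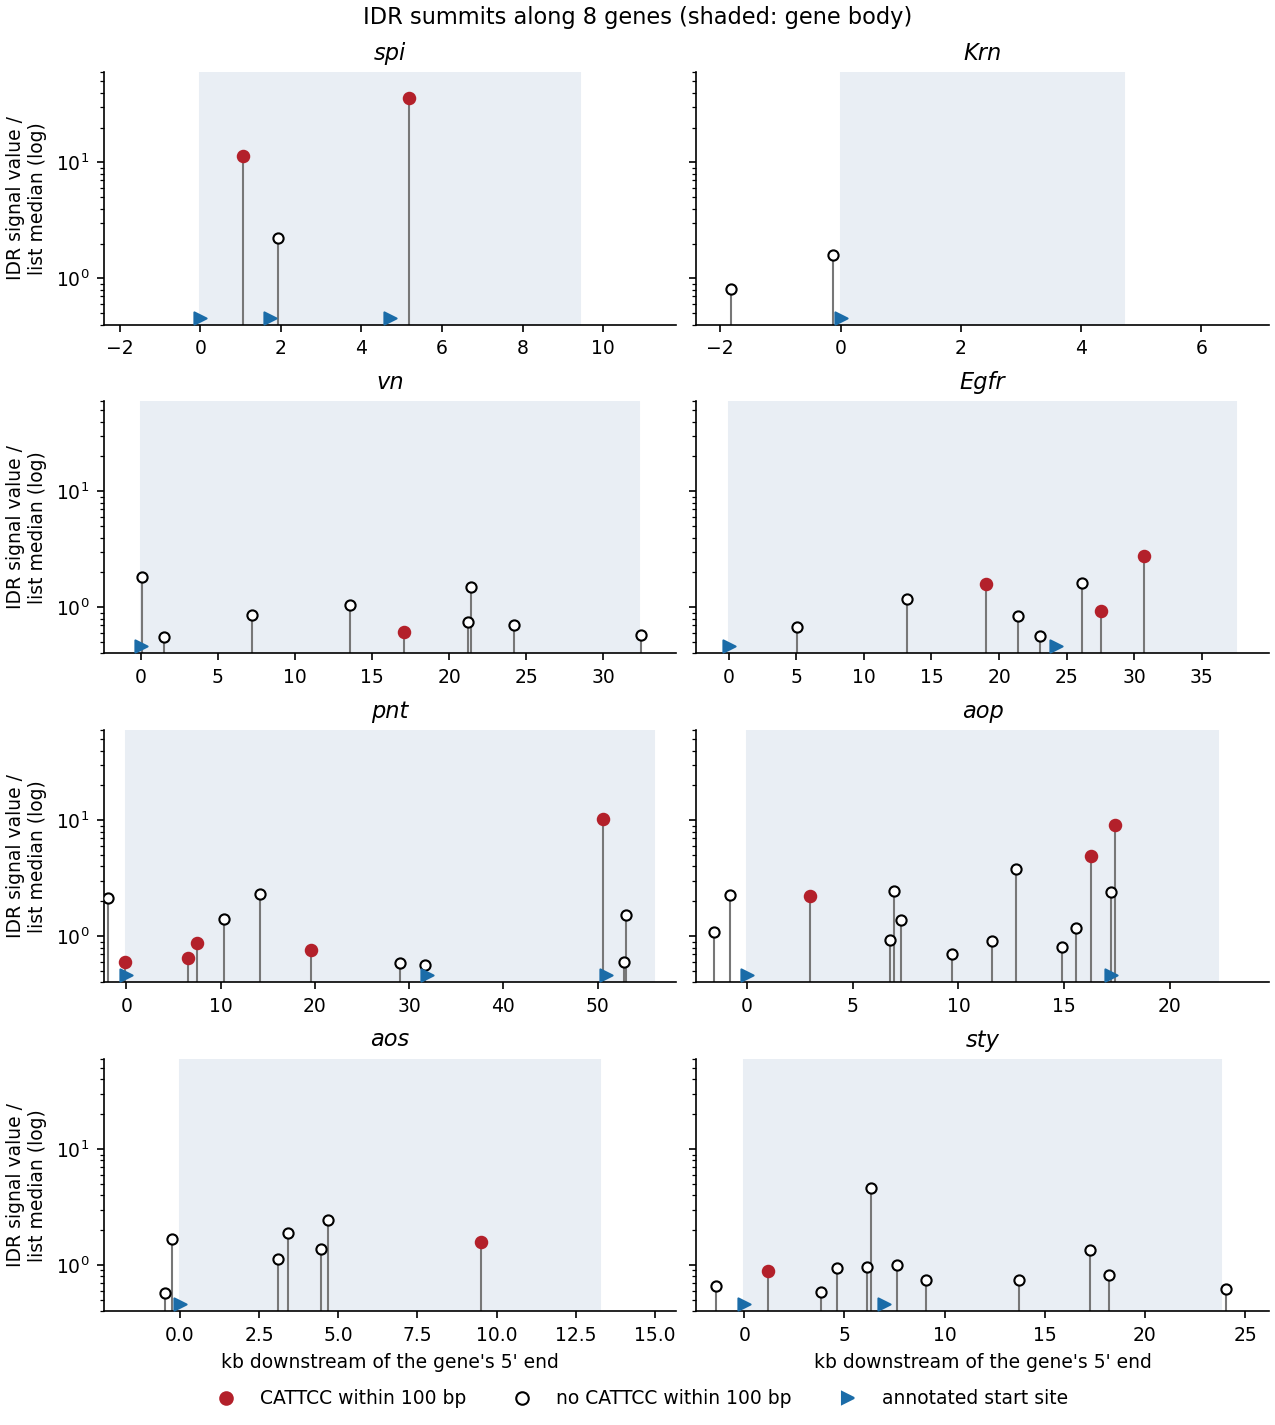
IDR summits along the 8 genes that had any. The horizontal axis is the distance in kb downstream of the gene's 5' end, the shading is the gene body, the vertical log axis is the IDR signal value divided by the list's median, triangles are annotated start sites and filled points have CATTCC within 100 bp. The tallest points of spi, pnt, aop and sty stand beside an internal start site, those of pnt and aop more than 15 kb from the 5' end.

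The place of the strongest peak had one feature in common. In each of the 5 genes whose start sites are spread over at least 1000 bp (spi, Egfr, pnt, aop and sty), the strongest summit was nearest to a start site other than the 5'-most. This was also the case for 59.8% of the 1356 protein-coding genes with start sites spread that far and an IDR summit. With 5 genes, and with this feature looked for after the peaks had been seen, nothing particular to the pathway can be read from it.

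Over all 9 genes, the 67 IDR summits lay in 56 separate intervals. The regions searched cover 240.41 kb, which gives 278.7 IDR summits per Mb against 78.8 over the 6 arms. The median number of IDR summits was 8 per gene, against 0 over all protein-coding genes and 2 over those of at least 10000 bp. Their median rank of 4929 was close to the 5277 of all IDR summits, and 8 of the 67 (11.9%) were among the 1000 strongest, against 9.48% of all. The median density over the 9 genes was 0.229 IDR summits per kb, against 0.0700 over genes of at least 10000 bp. It differed between the genes. Egfr, pnt and vn were denser than 77.1%, 78.5% and 85.1% of such long genes, below aop, sty and aos, and rho had no IDR summit. The peaks at these genes were thus of all strengths, and few were strong. Among protein-coding start sites, the nearest one was that of the gene itself for 57 of the 67 summits and that of another gene for 10, and 15 were also within 2000 bp of another protein-coding gene. For 10 of the 57, at Egfr, pnt and sty, a noncoding gene started nearer, which leaves 47 nearest to their own gene when all annotated genes are counted.

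Most of the summits were intronic. Introns held 47 of the 67 (70.1%, 95% exact Clopper-Pearson interval 57.7 to 80.7%), against 45.5% of all IDR summits. Within 500 bp of a start site were 13 (19.4%, interval 10.8 to 30.9%), against 38.2% of all. Another 2 (2.99%) lay in a 5' UTR, against 0.967% of all, and 5 (7.46%) between genes, against 12.7%. In coding sequence or a 3' UTR lay 0 of 67, which allows a share of up to 5.36% for each by the same method. Of all IDR summits, 0.313% lay in coding sequence and 1.32% in a 3' UTR, both below that limit. Of the 47 intronic summits, 24 were more than 5000 bp from any start site of their gene. The same count was not made over all intronic IDR summits, so nothing particular to these genes can be read from it. Intervals of these shares cover counting error only and treat neighbouring summits as independent. The share of bases that lie in introns was not matched in this comparison.

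CATTCC was found at 16 of the 67 summits (23.9%, interval 14.3 to 35.9%), against 19.8% of all 10553 IDR summits, so the interval includes the background. The permuted control CTACTC was found at 2 of 67 (2.99%), against 3.63% of all. Also searched on both strands were CCGGAA, a core of Ets-factor sites, with 3 of 67 (4.48%) against 4.99%, and TGACTCA, the site of AP-1 factors, with 2 of 67 (2.99%) against 2.85%. These motifs can overlap, since TTCCGG, the reverse complement of CCGGAA, can begin with the last bases (TTCC) of CATTCC. A match describes the letters in the window and does not show binding. The 16 sites were centred at a median of 27.5 bp from their summit, between 2.5 and 89.5 bp, and over all IDR summits the median was 30.5 bp for 2390 sites.

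The site was found more often at the strong peaks than at the weak ones. Among the 8 summits of rank 1000 or better, 6 had CATTCC (75%, interval 34.9 to 96.8%), against 33.6% of the 1000 strongest peaks of the genome. They were both of spi, 1 each of pnt and Egfr, and 2 of the 3 of aop. The intervals 34.9 to 96.8% and 30.7 to 36.6% overlap. Among the 59 weaker summits, 10 had the site (16.9%, interval 8.44 to 29.0%), against 18.4% of the 9553 weaker peaks of the genome. The 2 strong summits without it were those of sty at rank 336 and aop at rank 512.

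**Figure D4:**
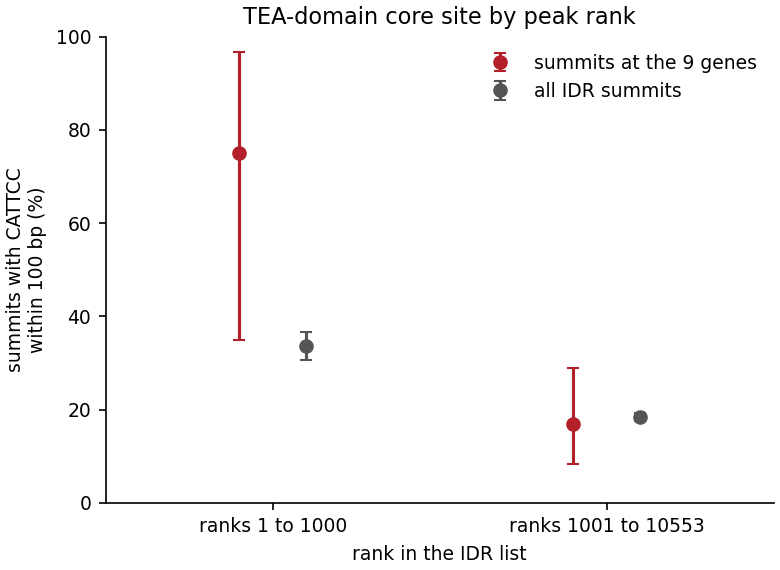
Percent of IDR summits with CATTCC within 100 bp, for ranks 1 to 1000 and 1001 to 10553, at the 9 genes (red) and over all IDR summits (grey). Points are shares and bars are 95% exact Clopper-Pearson intervals, and the interval of the 8 strong summits is wide, from 34.9 to 96.8%.

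The replicates placed these summits alike. The IDR list held the 10553 strongest peaks of these same replicates pooled, so the agreement was in part selected for. Of the 67, 64 (95.5%, interval 87.5 to 99.1%) had a summit within 100 bp in each of the 3 replicate lists, against 91.4% of all IDR summits. Another 2 were found in 2 replicates and 1 in a single replicate. Over the 64, Spearman's correlation of the ranks between replicates 1 and 3 was 0.906. Replicate 2 was less like the others, with 0.803 against replicate 3 and 0.80 against replicate 1. These describe summits within the same libraries, which are not independent points. The ratio of the highest to the lowest of the 3 ranks had a median of 1.61, and it was above 2 for 20 summits and above 3 for 5. Replicate 2 gave the weakest rank for 27 of the 64 summits, replicate 1 for 24 and replicate 3 for 13.

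**Figure D5:**
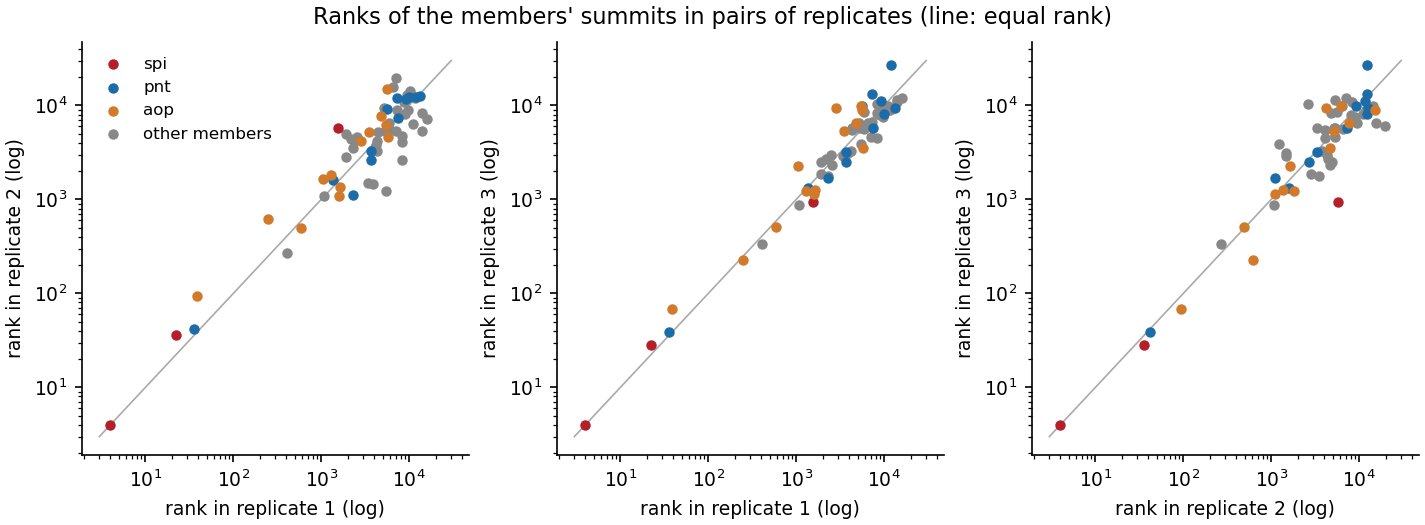
Ranks of the 64 summits found in all 3 replicates, for each pair of replicates on log axes, with a line at equal rank. The strongest summits of spi, pnt and aop lie along the line at the lower left, and the points scatter more from rank 1000 on.

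Below the IDR list, the pooled list held another 96 summits at the 9 genes. Of these, 41 (42.7%) were found in all 3 replicates, against 41.7% of the 19447 such summits of the genome. CATTCC was found at 9 (9.38%), against 14.5%. The weak summits at these genes were therefore found in replicates about as often as weak summits elsewhere. At rho, 0 of the 3 were found in all replicates within 100 bp, although each replicate had a summit within 131 bp of the start site.

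Beyond the 9 genes, 25 other genes of the pathway were counted by the same rule, and 18 (72%) had an IDR summit, against the 44.0% of all protein-coding genes and the 72.4% of long ones. Their median length was 7293 bp and 9 were at least 10000 bp long. None had a peak among the 100 strongest, against 0.947% of all protein-coding genes. A peak among the 1000 strongest was present at 6 of the 25, against 9.57% of all genes and 22.0% of long ones. In an intron of ru, which encodes the Rhomboid-family protease Roughoid, a summit with 1 CATTCC site ranked 216, making it stronger than any peak of rho. An intronic summit of Raf, the kinase downstream of Ras, ranked 583. In Mkp3, which encodes a MAP kinase phosphatase, a summit with 2 CATTCC sites ranked 633. The repressor gene cic had an intronic summit at rank 976.

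The last 2 of these 6 were less clearly tied to their gene. The summit of Shc, an adaptor gene, ranked 718 and lay outside it, 136 bp upstream of its start site but 116 bp from that of Atat. The summit in ed, which encodes an adhesion protein that restrains the receptor, ranked 821 and had its nearest protein-coding start site in Sr-CIII. No IDR summit was found at 7 genes, namely grk, which encodes the ligand Gurken of the oocyte, Sos, ksr, rl, Cbl, kek1 and PTP-ER. Of these, rl encodes the pathway's MAP kinase. At grk, Sos, ksr, rl and Cbl no replicate list had a summit either. At kek1 and PTP-ER the replicate summits ranked 23555 or weaker. A peak was thus found at most, but not all, of these genes.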

How the data were processed

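ChIP-seq peak lists of 3 replicates, their pooled list and the IDR list were used. Per the file headers, each was derived from dm6 alignments and 1 control alignment. That control was not analysed here, and which aligner, caller and IDR threshold were used is not given in the sources used here. The deposited signal value orders peaks within a list, and its scale differs between lists, so ranks and ratios to the list's median were used. The deposited −log10 q value was at its ceiling of 4.38 for all IDR peaks and ordered none. Each 30000-peak list is of equal length, so counts do not measure depth, which is unknown.

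Summits were assigned to genes of Ensembl release 115 (BDGP6.54, the coordinates of dm6), with 2000 bp on either side, and positions are 1-based. Summits within 100 bp were called shared. Classes were taken in a fixed order: first start sites (within 500 bp), then UTRs and coding sequence, then any other exon, intron and the space between genes. The 9 genes and the other lists were chosen with earlier results of these data known. Named were all 9 genes, their strongest summits and those of rank 1000 or better, and other listed genes with a summit of rank 1000 or better or with none. Further summits were named after their values had been seen, and so were the CCGGAA and TGACTCA motifs and the internal start sites chosen. Counting and motif search were checked on simulated data. Alternatives were other margins, lists, distances, motif windows and left-out replicates. A single group allows no test. Scripts ran on Python 3.11.15 with pandas 2.3.3 and numpy 2.4.6, intervals came from scipy 1.17.1 and plots from matplotlib 3.10.9.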

Additional observations from a re-analysis of the deposited data

How the results depend on the processing

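Of 105 alternative values for 16 results, 94 stayed within the limits set for a change and 11 moved. The 67 IDR summits became 35 above the list's median signal value and 163 in the pooled list. The share found in all 3 replicates, 95.5%, became 76.1% within 50 bp and 71.6% when only the strongest 10553 peaks of each replicate were searched. The share within 500 bp of a start site, 19.4%, became 31.3% within 1000 bp, where 49.8% of all IDR summits lay. Summits per replicate, 164.7, became 67 among those strongest peaks, 146.7 with no margin and 184 with a margin of 5000 bp. The mean rank of Krn, 2837, became 11497 both with no margin and by nearest start site, where the tie with Ndfip went to Ndfip, and that of rho, 10859, became 13630 with no margin. By either of these rules for Krn, 7 of the 9 genes had an IDR summit, and in the pooled list 9 had. The IDR list was not rebuilt without a replicate. Its 67 summits were only checked against the remaining replicates, which kept 64 to 66 (95.5 to 98.5%) at 8 genes. Since 64 were found in all 3 replicates, these counts could not fall lower. With each replicate left out in turn, mean ranks were 54 to 81 for aop, 2303 to 3524 for Krn and 2016 to 2893 for vn. No paired analysis was possible because the samples form a single group. Depth is unknown, so a peak absent from a list, as at grk, Sos, ksr, rl and Cbl, may lie below its 30000-peak limit.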

Other observations

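A further list of 17 genes of other receptor tyrosine kinase pathways was counted by the same rule, and 11 (64.7%) had an IDR summit. Of the 17, 12 were at least 10000 bp long, and the share was 44.0% over all protein-coding genes and 72.4% over those of that length. The strongest peak was at InR, the insulin receptor gene, where an intronic summit with 2 CATTCC sites ranked 80 and 22 IDR summits were found. For the FGF ligand genes ths and pyr the ranks were 185 and 409, and the summit of ths was 576 bp from a start site of CG42493. At Pvr, the PDGF and VEGF receptor gene, a summit 6 bp upstream of the start site ranked 455. The summit counted for tor, at rank 318, lay outside it and 154 bp from a start site of CG1941. No IDR summit was found at btl, Pvf2, trk, sev, boss or Alk. The cause of these differences was not tested.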
